A study of Mus musculus with 4 samples.

Results

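The cells described here are Lumino-Basal cells with low counts of 2 squamous genes, found in 2 mammary tumors of MMTV-PyMT mice. In these mice the mouse mammary tumor virus promoter drives polyoma middle T antigen in the mammary epithelium. The cells are not free of squamous genes, as values below show. They were selected on measured values, namely the authors' classification, which rests on expression, and the counts of 2 genes: members are the cells that the authors annotated as Lumino-Basal and that held fewer than 20 unique molecular identifiers (UMIs, each counting 1 captured RNA molecule) of Klk6, an epidermal serine protease, and Asprv1, an epidermal aspartic protease, together. The rule found 1156 cells of 15445 annotated cells in all 4 libraries, 65 of 2638 in the PKA tumor and 1091 of 5181 in the WT tumor. These numbers are 2.46% of PKA tumor cells (95% interval 1.91 to 3.13%) and 21.1% of WT tumor cells (20.0 to 22.2%), with exact Clopper-Pearson intervals.

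The libraries were a tumor and a hyperplastic gland of mice labelled PKA activated, and a tumor and a hyperplastic gland of mice labelled wild type (WT), all carrying the MMTV-PyMT transgene, with 1 library each. PKA is protein kinase A, the cAMP-dependent kinase, and neither the agent or allele that activated it nor the cells in which it was activated is given in the labels. Mice with tumors were 16 to 20 weeks old in the sample labels and 22 weeks old in the series design, and those with hyperplasia were 8 to 9 weeks old. Cells were dissociated, sorted by a gate that the labels do not describe, and sequenced with the 10x Chromium 3' kit. With 1 library per group no test could be made and no difference has a replicate check, so each interval below is a 95% interval that covers counting error only and compares libraries, not genotypes.

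The mammary duct has an outer basal layer of contractile myoepithelial cells, marked by Krt5, Krt14, Krt17 and the transcription factor p63, and an inner luminal layer marked by Krt8 and Krt18. Luminal cells are either progenitors that make milk proteins or mature cells that carry hormone receptors. Cells that hold keratins of both layers at once have been described in mammary development and in tumors, and the authors' Lumino-Basal class was defined in the series design by Krt14, Krt8 and Cd14.

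The 4 libraries held between 10648097 and 24499374 UMIs in annotated cells. Members held 405644 UMIs in the PKA tumor and 6305942 in the WT tumor, with a median of 6053 and 5600 UMIs per cell, against medians of 4135 to 8362 and 2860 to 5492 in the other classes of the same tumor. Levels are given in CPM, the UMIs of a gene scaled to a total of 1000000 UMIs in its class. A gene without a UMI could still be present at up to 7.40 CPM in PKA members and 0.476 CPM in WT members, taking a limit of 3 counts. The same barcode occurred in both tumor libraries 16 times, 5 of them with a member in 1 tumor and 0 with a member in both.

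The squamous genes divided the Lumino-Basal class of the WT tumor more than that of the PKA tumor. In the PKA tumor 55 of the 65 members held no UMI of Klk6 or Asprv1 and 10 held 1 or 2, and the only squamous Lumino-Basal cell held 99. In the WT tumor 488 members held none, 521 held 1 to 4 and 82 held 5 to 19, and 107 cells above the threshold were squamous. Just inside the threshold, 12 WT cells with 16 to 19 UMIs had 3191 CPM of Krt14 and 3462 CPM of Krt79, a hair follicle keratin. Just outside, 5 WT cells with 20 to 24 UMIs had 7998 CPM of Krt14 and 6048 CPM of Krt79. Thrsp, a nuclear factor that promotes fatty acid synthesis, was at 0 CPM on both sides of the threshold. Krt14 and Krt79 were thus higher just outside the threshold than just inside it, and levels differed within the members too: Thrsp was 703 CPM in WT cells without a UMI of the rule genes, 823 CPM at 1 to 4 UMIs and 268 CPM at 5 to 19, while Krt14 was 646, 489 and 3060 CPM in the same bins. For Thrsp and Krt14, members with 5 to 19 UMIs lay between the other members and the squamous cells, which held 13.5 CPM of Thrsp and 4612 CPM of Krt14. Other genes did not follow this order. The gap junction gene Gja1 was at 428, 356 and 765 CPM in the 3 bins of members. In squamous cells it was at 693 CPM at 20 to 59 UMIs and 200 CPM at 60 or more. These bins were cut by genes of the same cells and are a description.

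**Figure D1:**
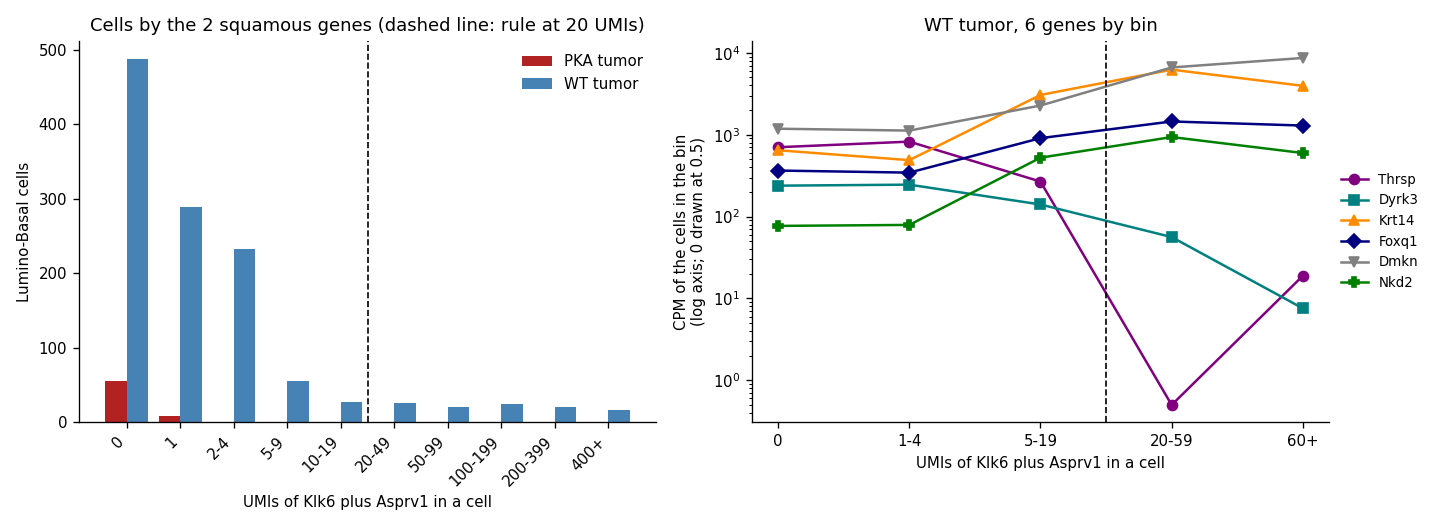
Left, number of Lumino-Basal cells (vertical axis) by their UMIs of Klk6 plus Asprv1 (horizontal axis) in the PKA tumor and the WT tumor, with the threshold of 20 UMIs dashed. Right, levels of 6 genes in CPM (log axis) in WT Lumino-Basal cells by the same UMIs; Krt14, Foxq1 and Nkd2 are higher from 5 to 19 UMIs on, at 3060, 908 and 524 CPM, and Thrsp is lower there, at 268 CPM.

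Members were compared with the 3 other classes of their own tumor, Luminal Progenitor 1, Mature Luminal and EMT-like cells. The class was made from these counts, so what follows is a description with no test. A gene was counted as higher or lower when log2 of (CPM + 10) differed by at least 1, a 2-fold change, in the same direction against each of the 3 classes, among genes of at least 50 CPM in members or in another class. In the PKA tumor 164 of 4757 genes (3.45%) were higher and 61 (1.28%) lower in members, and in the WT tumor 108 of 4637 (2.33%) were higher and 46 (0.992%) lower. Counts from gene lists against the other classes, given below, stand beside these shares. With TMM scaling, which corrects for a shift common to many genes, the split in the PKA tumor was 105 higher and 101 lower, and that in the WT tumor 89 higher and 63 lower. Of the higher genes 20 were shared between the tumors, 12.2% of those in the PKA tumor and 18.5% of those in the WT tumor. They included Krt14, Krt17, Nkd2, Dyrk3, the gap junction genes Gja1 and Gjb2, the transcription factor Foxq1 and the growth factor gene Pdgfb. Of the lower genes 8 were shared, 13.1% and 17.4%, among them the water channel gene Aqp5 and Prkar2b.

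The label was first set against its defining markers. Krt14, a basal keratin, was at 735 CPM in PKA members, against 236 CPM in Luminal Progenitor 1, 39.8 in Mature Luminal and 19.4 in EMT-like cells. In the WT tumor Krt14 was at 733 CPM in members, against 327, 26.2 and 72.4 CPM in the same 3 classes. Krt8, a luminal keratin, was at 2751 CPM in PKA members and 2101 CPM in WT members, and lay within the range of the other classes in both tumors. Cd14, a receptor for bacterial lipopolysaccharide that marks luminal progenitors, was at 651 CPM in PKA members and 473 CPM in WT members, below the 1302 and 1017 CPM of Luminal Progenitor 1 cells. So members of both tumors, pooled, held more Krt14 than any other class, and luminal keratins at luminal levels. But 1 of the authors' Luminal Progenitor 1 clusters in the WT tumor, with 388 cells, held 527 CPM of Krt14. The 521 WT members with 1 to 4 UMIs of the rule genes held less, 489 CPM. Krt14 and Krt8 were seen together in 37.1% of PKA members and 29.4% of WT members after each cell was thinned to 2000 UMIs, against 13.2% and 13.0% of Luminal Progenitor 1 cells (55.4% and 44.5% of members without thinning). Thinning kept 62 PKA members and 1023 WT members.

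Other defining genes of the basal layer were at or near 0. Krt5, the partner keratin of Krt14, had 0 UMIs in PKA members and 13.6 CPM in WT members, and 98.8% of those WT UMIs lay in 31 cells described below. Snai2, a basal transcription factor, had no UMI in either tumor's members. Trp63, which encodes p63, was at 2.47 CPM in PKA members and 2.54 CPM in WT members, and Acta2, smooth muscle actin, at 27.1 and 14.7 CPM. Basal cells of PKA and WT hyperplasia held 532 and 465 CPM of Krt5, 181 and 182 CPM of Snai2, 214 and 226 CPM of Trp63 and 6672 and 4354 CPM of Acta2. Of the 3 basal markers that the series design names, members thus carried Krt14 alone. Mature luminal genes were low as well: Pgr, the progesterone receptor, had 0 UMIs in PKA members and 0.634 CPM in WT members, and Prlr, the prolactin receptor, was at 51.8 and 27.1 CPM. Of 11 mature luminal genes above the filter 0 were called in the PKA tumor and 1, Prlr, was lower in WT members. Of all genes 1.28% and 0.992% were lower. The list medians were -2.29 and -3.08 against the mean of the other classes. Those classes include Mature Luminal, which is named by such genes, so negative medians follow from the comparison. The EMT-like class, named in the design by Trim29, Vim, Cldn6 and Sox4, held no UMI of Trim29 or Cldn6 in either tumor and less Sox4 than the 3 other groups of cells, so its name is used only as a label.

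Krt17, a keratin of basal and activated epithelium (chr11:100256217-100261029, minus strand, GRCm38), was the marker that members of both tumors shared most clearly. It was at 683 CPM in PKA members (605 to 768), against 48.5, 19.5 and 2.77 CPM in Luminal Progenitor 1, Mature Luminal and EMT-like cells. In WT members it was at 427 CPM (411 to 443), against 124, 11.5 and 9.40 CPM. The ratio to Luminal Progenitor 1 cells was 14.1 (12.2 to 16.2) in the PKA tumor and 3.44 (3.22 to 3.68) in the WT tumor. Krt17 had a UMI in 25.8% of thinned PKA members and 28.1% of thinned WT members, against 2.85% and 7.88% of Luminal Progenitor 1 cells. Unthinned, the shares of members were 43.1% and 39.7%. Basal cells of PKA and WT hyperplasia held 2364 and 2027 CPM, more than members of either tumor. Of 7 basal keratin genes 4 passed the filter in the PKA tumor and 2 were higher in members, Krt14 and Krt17. In the WT tumor 5 passed and 3 were higher, Krt14, Krt17 and Krt16. Of all genes 3.45% were higher in the PKA tumor and 2.33% in the WT tumor.

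Dyrk3, a kinase that dissolves stress granules (chr1:131127455-131138340, minus strand), was higher in members of both tumors, and TMM scaling ended the call in the PKA tumor. PKA members held 126 CPM (93.6 to 165), against 46.9, 52.4 and 29.5 CPM in Luminal Progenitor 1, Mature Luminal and EMT-like cells, and WT members held 235 CPM (224 to 248), against 96.8, 55.5 and 60.9 CPM. In squamous Lumino-Basal cells of the WT tumor Dyrk3 was at 21.6 CPM. Sox4, a transcription factor of progenitor cells (chr13:28948919-28953713, minus strand), did not set members apart in the PKA tumor, with 1092 CPM in members against 789, 1254 and 340 CPM. WT members held 1357 CPM of Sox4, against 685, 440 and 244 CPM, a difference under 2-fold on the (CPM + 10) scale to Luminal Progenitor 1 cells. Sox4 was the only one of the 5 marker genes that was not counted as higher in WT members.

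Thrsp and Cyp1b1 separated the members of the 2 tumors. Thrsp (chr7:97412938-97417730, minus strand) was at 9.86 CPM in PKA members (2.69 to 25.2), against 65.3, 9.77 and 68.3 CPM in Luminal Progenitor 1, Mature Luminal and EMT-like cells. In WT members it was at 737 CPM (716 to 759), against 142, 26.2 and 85.4 CPM. The ratio of PKA to WT members was 0.0134 (0.00364 to 0.0343), while PKA Luminal Progenitor 1 cells were 2.18-fold lower than WT ones. Other cells held Thrsp as well: 1 of the authors' Luminal Progenitor 1 clusters in the WT tumor, with 399 cells, held 459 CPM, and Luminal Progenitor 2 cells of PKA and WT hyperplasia held 472 and 390 CPM. Thrsp had a UMI in 3.23% of thinned PKA members and 38.2% of thinned WT members, against 6.85% and 13.5% of Luminal Progenitor 1 cells and 1.16% and 4.38% of Mature Luminal cells. Unthinned, the shares of members were 6.15% and 51.4%.

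Cyp1b1, a cytochrome P450 of steroid and xenobiotic oxidation whose transcription the aryl hydrocarbon receptor drives, was higher in members of the WT tumor than in any other class. It was at 32.1 CPM in PKA members (17.1 to 54.8), against 2.68, 0 and 0.923 CPM in Luminal Progenitor 1, Mature Luminal and EMT-like cells, which left it below the filter there. WT members held 308 CPM (294 to 322), against 4.19, 7.17 and 2.45 CPM, a 42.9-fold difference to Mature Luminal cells (30.8 to 61.8). Unlike Thrsp it was as high in squamous Lumino-Basal cells of the WT tumor, at 334 CPM. A UMI was seen in 1.61% of thinned PKA members and 37.9% of thinned WT members, against 0.45% and 0.774% of Luminal Progenitor 1 cells. Without thinning, Cyp1b1 was seen in 10.8% and 61.4% of members.

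**Figure D2:**
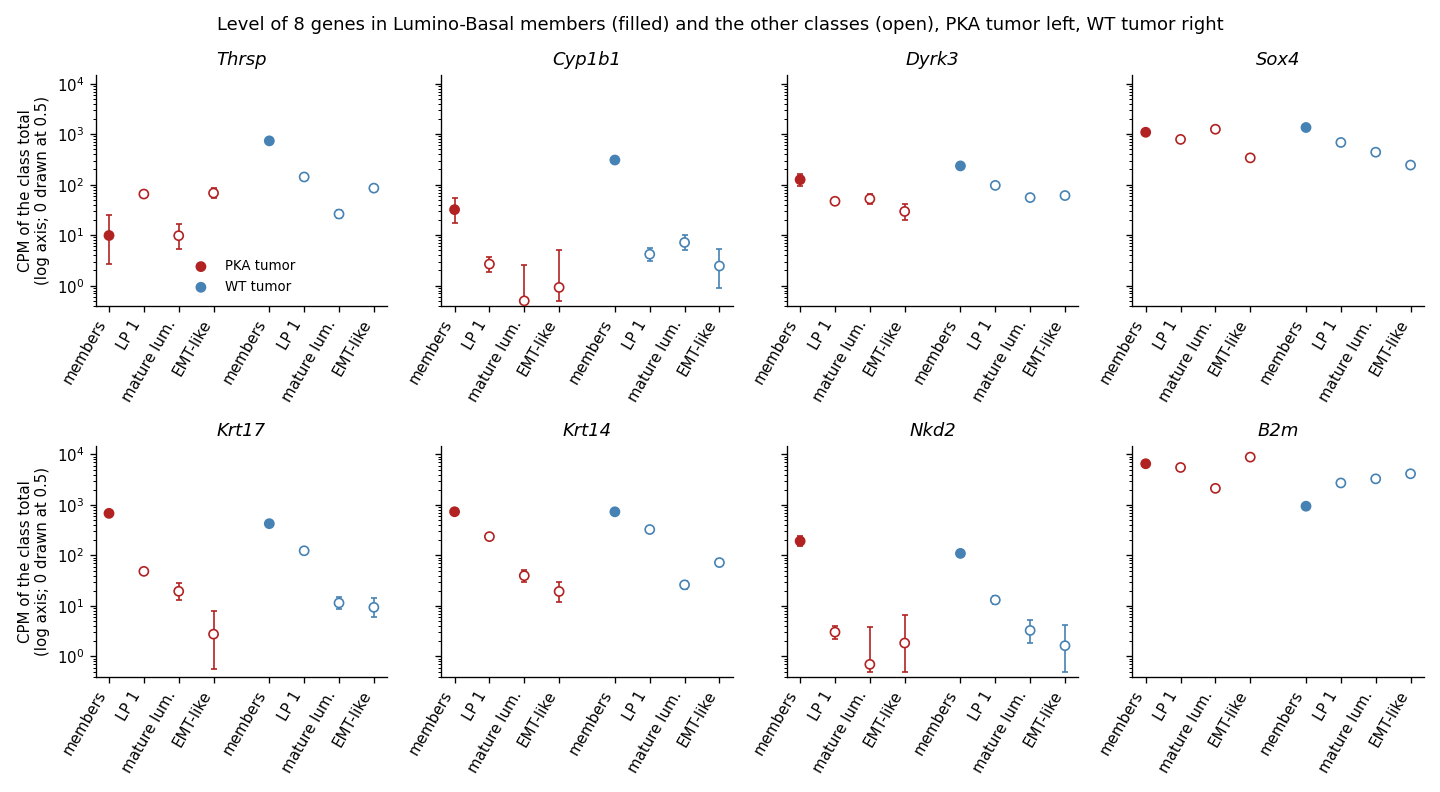
Levels of 8 genes in CPM (log axis, 0 drawn at 0.5) in members (filled) and in Luminal Progenitor 1, Mature Luminal and EMT-like cells (open) of the PKA tumor and the WT tumor, with 95% counting intervals as bars. Krt17, Krt14, Nkd2 and Dyrk3 are highest in members of both tumors, Thrsp is highest in members of the WT tumor at 737 CPM, and B2m is lowest there at 946 CPM.

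The aryl hydrocarbon receptor is a ligand-activated transcription factor that binds xenobiotic response elements with its partner Arnt. Of 10 genes of this pathway 4 passed the filter in the WT tumor and 3 were higher in members, beside 2.33% of all genes. These were Cyp1b1, the receptor gene Ahr, and Tiparp, a target that encodes a repressor of the receptor. Ahr was at 229 CPM in WT members, against 45.9, 32.0 and 77.3 CPM in Luminal Progenitor 1, Mature Luminal and EMT-like cells, and at 93.7 CPM in PKA members. Tiparp was at 250.4 CPM in WT members, against 118.5, 42.4 and 42.9 CPM, and at 101 CPM in PKA members. Its difference to Luminal Progenitor 1 cells was close to the 2-fold limit. Over the scalings, cell filters and cell selections tried, 2 to 3 genes of the list were higher in WT members. The fourth, Nqo1, a quinone reductase that NRF2 also controls, was at 7.45 CPM in WT members. In the PKA tumor 3 genes of the list passed the filter and 0 were called. The promoters of Cyp1b1 and Tiparp are shown because both genes were higher in WT members; sequences run 5′ to 3′ on the gene's strand, 250 bases before to 50 after the RefSeq start (GRCm38.p6), with CACGC, the reverse complement of the xenobiotic response element core GCGTG, in capitals.
Cyp1b1, chr17:79715012-79715311, minus strand: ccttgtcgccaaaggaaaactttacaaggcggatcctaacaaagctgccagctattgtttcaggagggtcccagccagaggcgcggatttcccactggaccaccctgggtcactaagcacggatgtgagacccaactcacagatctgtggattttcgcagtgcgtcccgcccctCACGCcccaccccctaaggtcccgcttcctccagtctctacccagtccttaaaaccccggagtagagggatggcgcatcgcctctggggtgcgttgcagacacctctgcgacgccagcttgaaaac
Tiparp, chr3:65528197-65528496, plus strand: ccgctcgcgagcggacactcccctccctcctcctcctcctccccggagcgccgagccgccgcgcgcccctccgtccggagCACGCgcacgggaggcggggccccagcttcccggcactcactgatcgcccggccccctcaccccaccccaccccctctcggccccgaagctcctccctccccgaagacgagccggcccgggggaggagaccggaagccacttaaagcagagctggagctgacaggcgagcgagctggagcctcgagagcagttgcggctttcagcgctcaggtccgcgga
GCGTG was searched on both strands and was found 1 time in each window, on the opposite strand. Of 32851 RefSeq promoters of the same length 10639 (32.4%) held it, so its presence is common and describes these windows only.

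Genes of the Wnt pathway were read next, since Nkd2 was among the genes furthest above every other class in both tumors. Nkd2, which binds Dishevelled and restrains Wnt signalling (chr13:73818534-73847631, minus strand), was at 192 CPM in PKA members, against 3.04, 0.698 and 1.85 CPM in Luminal Progenitor 1, Mature Luminal and EMT-like cells. In WT members it was at 110 CPM, against 13.1, 3.28 and 1.63 CPM, and in squamous WT cells at 695 CPM. The ratio to Luminal Progenitor 1 cells was 63.3 (43.0 to 94.5) in the PKA tumor and 8.36 (6.95 to 10.1) in the WT tumor. Axin2, a scaffold of the destruction complex and a Wnt target, had 0 UMIs in PKA members and 46.6 CPM in WT members, against at most 1.43 CPM in the other WT classes. Nkd1 was at 2.47 CPM in PKA members and 26.0 CPM in WT members. Znrf3, a ubiquitin ligase that removes Wnt receptors, was at 81.3 CPM in PKA members and 391 CPM in WT members, against 72.9, 45.3 and 82.6 CPM in the other WT classes. Over the list of 23 Wnt genes, which does not hold Nkd2, 9 passed the filter in each tumor, and Axin2 and Nkd1 did not. In PKA members 0 were higher, beside 3.45% of all genes, and 1 lower, the ligand gene Wnt5a, beside 1.28%. In WT members 2 were higher, Znrf3 and the receptor gene Lgr6, beside 2.33%, and 0 lower, beside 0.992%. Between PKA and WT members 6 passed, 2 were higher in PKA members, the ligand genes Wnt5b and Wnt7b, and 2 lower, Lgr6 and Znrf3, with a median of -0.04. Its medians in the PKA and WT tumors, -0.30 and 0.12 against the mean of the 3 classes, lay near those of all genes that passed the filter, 0.04 and 0.10.

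Among the 12 genes furthest above every other class in the WT tumor, Cyp1b1 and Thrsp were joined by Gas7, Dmkn, Pamr1, Foxq1, Ppic, Nkd2, Bex1, Gja1, Apoe and Pglyrp1. Gas7, an actin-binding protein, was at 294 CPM in WT members, against at most 7.79 CPM in the other classes, and at 27.1 CPM in PKA members. Dmkn, a secreted protein of differentiating epidermis, was at 1228 CPM in WT members and 62.7, 24.6 and 62.6 CPM in the other classes, 19.6-fold above Luminal Progenitor 1 cells (18.1 to 21.2). In the PKA tumor Dmkn was at 444 CPM in members and 356 CPM in Luminal Progenitor 1 cells. Foxq1 was at 392 CPM in WT members, against at most 34.4 CPM, and at 153 CPM in PKA members, against at most 20.2 CPM. Gja1, which encodes connexin 43 of basal cell gap junctions, was at 413 CPM in WT members, against at most 76.2 CPM, and at 143 CPM in PKA members, against at most 23.04 CPM. Apart from Apoe, seen in 52 cells, these genes had UMIs in 243 to 867 of the 1091 WT members. Apoe had 93.1% of its WT member UMIs in 31 cells and was at 8.53 CPM without them. Members then lay below the highest of the other classes, from which no cells were left out. Of 24 squamous and barrier genes 6 passed the filter in the WT tumor and 4 were higher in members, beside 2.33% of all genes. These were Dmkn, Krt79, Sbsn and Asprv1, the last a gene of the rule.

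The genes furthest below every other class in the WT tumor held several of immune function. Hp, the haemoglobin-binding haptoglobin, was at 8.56 CPM in WT members, against 248, 1003 and 152 CPM in Luminal Progenitor 1, Mature Luminal and EMT-like cells. Aqp5 was at 183 CPM, against 1286, 838 and 2399.7 CPM, and F3, the tissue factor gene that starts coagulation, at 30.3 CPM, against 158, 1206 and 224 CPM. B2m, the invariant chain of MHC class I (chr2:122147686-122153083, plus strand), was at 946 CPM in WT members, against 2730, 3296 and 4153 CPM, a ratio of 0.346 to Luminal Progenitor 1 cells (0.337 to 0.356). Of 15 antigen presentation genes 11 passed the filter in the WT tumor. In members 5 were lower, beside 0.992% of all genes, and 1, Cd74, was higher, beside 2.33%. The list's median was -1.41 against the mean of the other classes, beside 0.10 for all genes. Cd74, the class II invariant chain, had 91.3% of its UMIs in 31 cells and was no longer higher without them, whereas the 5 lower genes remained. H2-K1, a class I heavy chain, was at 602 CPM in WT members, against 1941, 1506 and 2899 CPM, and Psmb9, a subunit of the immunoproteasome, at 34.2 CPM, against 122, 289 and 175 CPM. None of 10 antigen presentation genes above the filter was called in the PKA tumor, where B2m was at 6557 CPM in members, against 5534, 2134 and 8868 CPM.

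The 12 genes furthest above every other class in the PKA tumor were Dcn, Tnfrsf11b, Nkd2, Ctla2a, Fn1, Krt17, Cpm, Pla2g7, Ankrd1, Ctgf, Fxyd5 and Pdgfb. Tnfrsf11b, the decoy receptor osteoprotegerin, was at 168 CPM in PKA members and at most 1.40 CPM in the other classes of that tumor, and at 28.9 CPM in WT members. Cpm, the membrane enzyme carboxypeptidase M, was at 382 CPM in PKA members, against 25.0, 10.5 and 14.8 CPM. Ctgf, a matrix-associated growth factor and target of YAP, was at 330 CPM in PKA members, against 22.4, 4.19 and 3.69 CPM, and at 27.0 CPM in WT members. These genes rested on few cells in different degrees. Dcn, a proteoglycan of fibroblasts, had UMIs in 2 of the 65 cells, Ankrd1 in 4 and Fn1, the fibronectin gene, in 6. The 9 others were seen in 19 to 34 of the 65 cells. A UMI of at least 3 of the 12 genes was held by 70.8% of PKA members, against 0.788% of Luminal Progenitor 1 cells. The 12 genes were chosen as high in these same cells, so this contrast follows from the choice. Ctla2a, a cysteine protease inhibitor, had 35.7% of its UMIs in 1 cell, Ankrd1 79.4% and Fn1 80.4%.

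**Figure D3:**
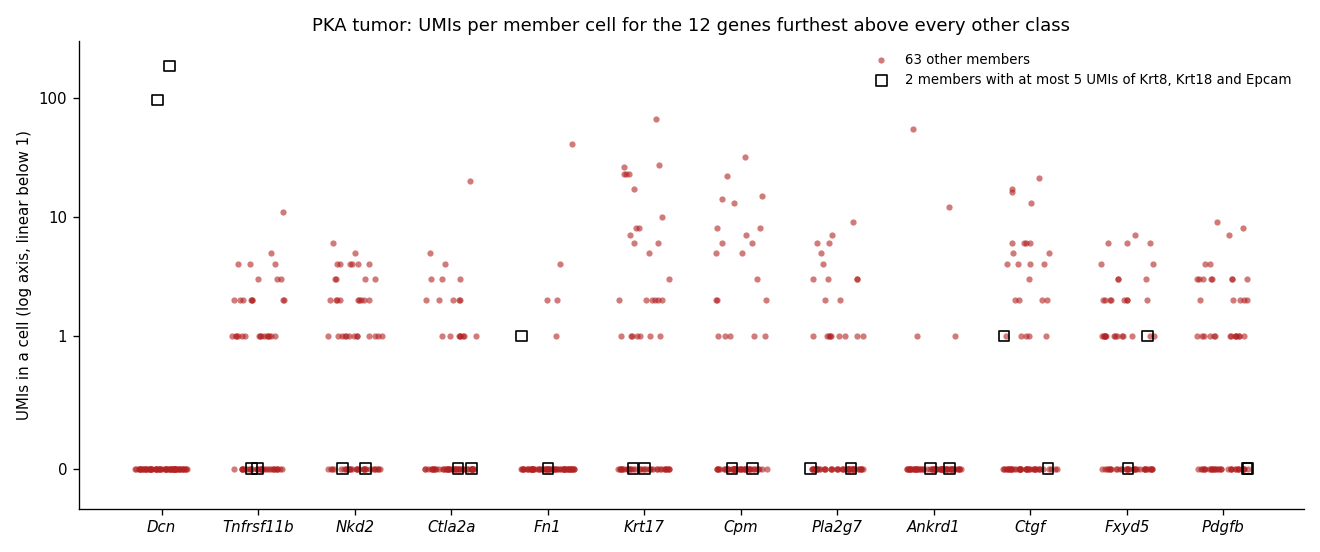
UMIs per cell (vertical axis, log above 1) of the 12 genes furthest above every other class in the PKA tumor, with 1 point for each of the 65 members. Squares mark the 2 cells with at most 5 UMIs of Krt8, Krt18 and Epcam, which hold every UMI of Dcn, and no UMI of Krt17 or Nkd2 lies in them.

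Below every other class in the PKA tumor lay Clca3a2, Apoc1, Cldn10, Pdzk1ip1, Saa2, Kcne3, Dkkl1, Kctd1, Phyh, Fam174b, Prkar2b and Cd164l2. Clca3a2, a chloride channel regulator, was at 76.4 CPM in PKA members, against 590.2, 419 and 763 CPM. Cldn10, a tight junction claudin, was at 9.86 CPM, from 4 UMIs, against 75.0, 288 and 221 CPM. Prkar2b encodes a regulatory subunit of PKA that holds the catalytic subunit inactive until cAMP binds. It was at 4.93 CPM in PKA members, from 2 UMIs, against 29.4, 219 and 36.0 CPM. WT members held 15.9 CPM of it, against 41.8, 89.7 and 85.4 CPM. The ratio of PKA to WT members was 0.311, with an interval that holds 1 (0.0371 to 1.15). Of 13 genes for PKA subunits, inhibitors and anchors 5 passed the filter in each tumor, 0 were higher in members and 1 was lower, Prkar2b in both. Of all genes 3.45% were higher and 1.28% lower in the PKA tumor, and 2.33% and 0.992% in the WT tumor. The catalytic subunit gene Prkaca was at 76.4 CPM in PKA members and 75.5 CPM in WT members. None of the CREB target genes, which PKA induces through the factor CREB, was called in either tumor, of 9 measured in the PKA tumor and 10 in the WT tumor.

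A few members carried little epithelial RNA. At most 5 UMIs of Krt8, Krt18 and Epcam together were found in 2 of 65 PKA members (3.08%) and 31 of 1091 WT members (2.84%), where the medians of all members were 60 and 46 UMIs. Each PKA cell of these held at least 5 UMIs of fibroblast markers, and of the 31 WT cells 7 held at least 5 UMIs of fibroblast markers, 2 of macrophage markers and 13 of the design's basal markers. They held all of the Dcn UMIs of PKA members, which stood at 688 CPM with them and 0 without. They also held 97.5% of the PKA member UMIs of Mgp, a matrix calcification inhibitor (976 CPM with them, 25.4 without), 87.9% of Vim, an intermediate filament of mesenchymal cells (306 and 38.0 CPM), and 87.4% of Cst3, a protease inhibitor (2224 and 289 CPM). No UMI of Krt14, Krt17, Nkd2 or Tnc in PKA members lay in them. In the WT tumor they held 15.2% of Krt14 UMIs, and Krt14 fell just short of 2-fold over Luminal Progenitor 1 cells without them, at 631 CPM. Summed over 6 fibroblast markers, members held 744 CPM in the PKA tumor, against 4.61 to 30.0 CPM in its other classes, and 124 CPM in the WT tumor, against 18.3 to 901 CPM. Summed macrophage markers were 2.47 CPM in PKA members, with 4 of 5 genes at 0, and 25.2 CPM in WT members, and summed endothelial markers 2.47 and 2.70 CPM. All T cell and B cell markers were at 0 in PKA members, as were all 5 adipocyte markers. Without these cells 164 genes were higher and 62 lower in the PKA tumor, 152 and 56 of them among those counted with all members, and 104 and 47 in the WT tumor, 102 and 46 of them among those counted with all members.

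Members of the PKA tumor were then set against members of the WT tumor, with 1 library each, which compares libraries and not genotypes. Of 4325 genes of at least 50 CPM in either, 368 (8.51%) were at least 2-fold higher and 420 (9.71%) at least 2-fold lower in PKA members. Luminal Progenitor 1 cells of the same tumors gave 96 (2.62%) higher and 69 (1.88%) lower of 3665 genes from 2157 PKA and 2343 WT cells. Mature Luminal cells gave 3.47% and 1.65%, and EMT-like cells 4% and 3.33%. PKA members held 405644 UMIs and PKA Luminal Progenitor 1 cells 13833205. Counting error therefore weighs more in the shares of members. With each gene counted without its top member cell, 273 genes were higher and 567 lower in PKA members. TMM scaling moved the median of all genes from its value of -0.07 by -0.18, and then gave 573 lower genes, with 31.5% of called genes higher in place of 46.7%, so a single gene near 2-fold depends on the scaling.

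The genes furthest below WT in PKA members were Thrsp, Emid1, Krt23, Krt79, Wap, Ctns, Igfbp4, Ppic, Nxn, Ltf, Gas7 and Cyp1b1. Emid1, an extracellular matrix protein, was at 9.86 CPM in PKA members and 718 CPM in WT members. Krt23, an epithelial keratin, was at 4.93 CPM in PKA members and 303 CPM in WT members. Cyp1b1 was 9.61-fold lower in PKA members. Ltf, the iron-binding milk protein lactoferrin, was at 397 CPM in PKA members and 3519 CPM in WT members, and Csn3, the casein of micelle surfaces, at 2275 and 9723 CPM, while Csn3 in Mature Luminal cells was 1646 and 1432 CPM. Of 11 milk protein genes 6 passed the filter and 5 were lower in PKA members, Csn1s1, Csn3, Wap, Xdh and Muc15, with a list median of -1.94 beside -0.07 for all genes. In Luminal Progenitor 1 cells 1 milk protein gene was higher and 1 lower of 6. Of 13 luminal progenitor genes 6 were lower and 2 higher in PKA members, and Elf5, the transcription factor of milk-producing cells, was among the lower ones. Of 4 aryl hydrocarbon receptor genes above the filter 3 were lower, Cyp1b1, Ahr and Tiparp, and Nqo1 was higher at 59.2 CPM in PKA members and 7.45 CPM in WT members. Of 12 fatty acid synthesis genes 4 were lower, Thrsp, Acly, Scd2 and Srebf1, and 2 higher. The list counts between PKA and WT members stand beside 9.71% lower and 8.51% higher of all genes. Acly, which makes acetyl-CoA from citrate, was at 37.0 CPM in PKA members and 149 CPM in WT members, and Fasn, the fatty acid synthase, at 34.5 and 73.7 CPM.

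The genes furthest above WT in PKA members were Apod, Npy, Wfdc12, Mgp, Saa1, Spp1, Cst3, Ctla2a, Sparcl1, Ubd, Tnc and H2-Q7. Tnc, the matrix glycoprotein tenascin C, was at 141 CPM in PKA members and 1.59 CPM in WT members, a ratio of 88.6 (44.8 to 195). Ubd, a ubiquitin-like modifier induced by inflammatory cytokines, was at 123 CPM in PKA members and 0.159 CPM in WT members. Npy, a neuropeptide, was at 574 CPM in PKA members and 0.793 CPM in WT members, and Luminal Progenitor 1 cells had it at 469 and 69.0 CPM. Several genes of this group rested on few cells. Without the members poor in Krt8, Krt18 and Epcam, the log2 ratio was 1.75 in place of 5.83 for Apod, a lipocalin, 0.92 in place of 5.43 for Mgp and 1.34 in place of 4.02 for Cst3, while that of Spp1, the secreted phosphoprotein osteopontin, was 3.66 in place of 4.06. Wfdc12, a protease inhibitor, had 91.0% of its PKA member UMIs in 1 cell.

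**Figure D4:**
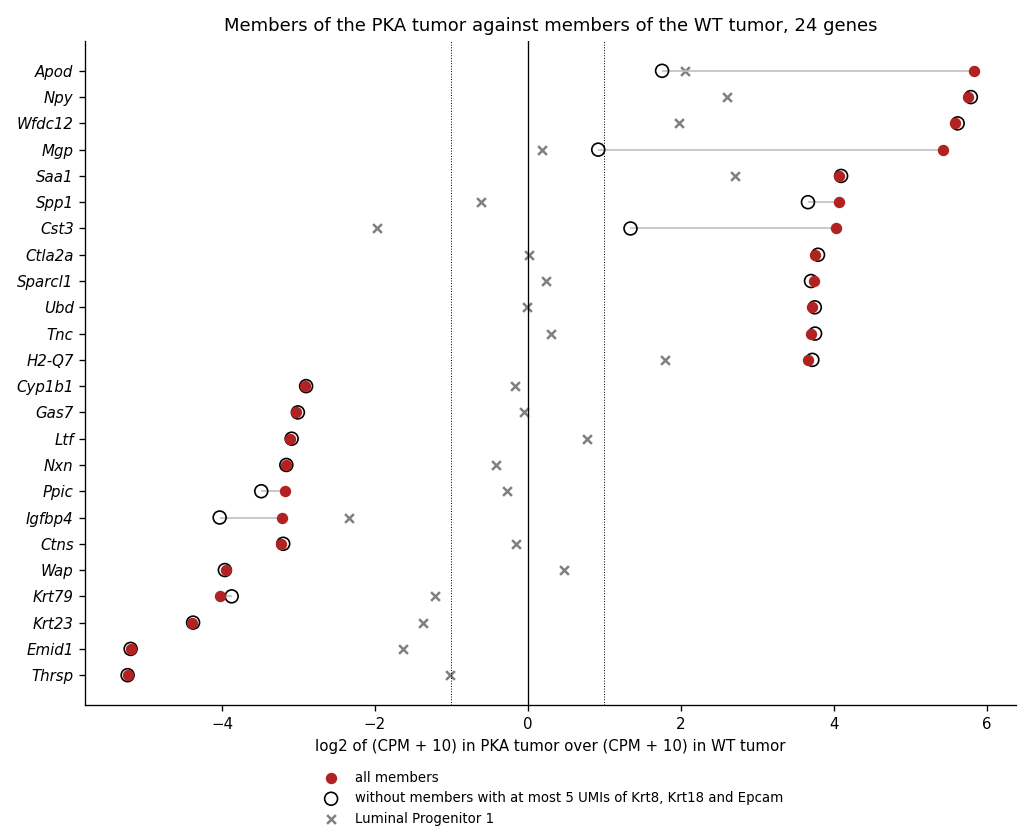
Log2 ratio of (CPM + 10) in the PKA tumor over the WT tumor (horizontal axis) for the 12 genes furthest above and the 12 furthest below WT in members, in all members (filled), without the members that hold at most 5 UMIs of Krt8, Krt18 and Epcam (open circles) and in Luminal Progenitor 1 cells (crosses). Apod, Mgp and Cst3 move most without those cells, to 1.75, 0.92 and 1.34, and Thrsp lies at -5.23 in all members.

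Several class I antigen presentation genes were higher in PKA members. B2m was at 6557 CPM in PKA members and 946 CPM in WT members, a ratio of 6.93 (6.62 to 7.26), against ratios of 2.03 in Luminal Progenitor 1, 2.14 in EMT-like and 0.647 in Mature Luminal cells. H2-K1 was at 1977 CPM in PKA members and 602 CPM in WT members, and H2-D1, another class I heavy chain, at 3072 and 1108 CPM. Of 11 antigen presentation genes above the filter 6 were higher and 1 lower in PKA members, with a median of 1.19 and beside 8.51% higher and 9.71% lower of all genes, and 1 of 10 was higher in Luminal Progenitor 1 cells. The lower gene was Cd74, whose WT UMIs lay mostly in the 31 cells poor in epithelial genes. Most interferon response genes were higher too. Of 13 above the filter 9 were higher and 0 lower in PKA members, with a median of 1.18, and 1 of 14 was higher in Luminal Progenitor 1 cells, with a median of 0.52. Isg15, a ubiquitin-like protein induced by interferon, was at 426 CPM in PKA members and 146 CPM in WT members, and Irf7, the transcription factor that amplifies the interferon response, at 402 and 155 CPM. Against the mean of the other classes of their own tumor, the median of the interferon list was -0.05 in PKA members and -0.92 in WT members, beside 0.04 and 0.10 for all genes. Irf7 was at 573, 114 and 639 CPM in Luminal Progenitor 1, Mature Luminal and EMT-like cells of the PKA tumor, and at 499, 86.7 and 527 CPM in those of the WT tumor. The differences between cell classes were not tested. The B2m promoter is shown because this gene had the highest level of the list in PKA members, with a match to the interferon-stimulated response element, taken as GAAA and a second GAAA with any 2 bases between them, in capitals, read 5′ to 3′ from RefSeq (GRCm38.p6).
B2m, chr2:122147437-122147736, plus strand: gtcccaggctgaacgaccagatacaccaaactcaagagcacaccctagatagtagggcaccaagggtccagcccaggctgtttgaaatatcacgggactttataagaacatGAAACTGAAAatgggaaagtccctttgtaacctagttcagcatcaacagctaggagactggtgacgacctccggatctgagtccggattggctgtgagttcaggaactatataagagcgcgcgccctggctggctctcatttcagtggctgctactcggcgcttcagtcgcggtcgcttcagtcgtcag
This pattern was searched on both strands. It was found in 1131 of the 32851 promoters (3.44%) and in neither entry of H2-K1 nor in the windows of Psmb8 and Psmb9. Other forms of the element were not searched, so a window without the pattern may still hold one.

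Some adhesion, ERK feedback and matrix genes were also higher in PKA members, beside 8.51% of all genes. Of 10 hemidesmosome, integrin and basement membrane genes above the filter 6 were higher and 0 lower than in WT members, with a median of 1.22, and 1 of 8 was higher in Luminal Progenitor 1 cells. Itgb1, the common chain of matrix-binding integrins, was at 429 CPM in PKA members and 192 CPM in WT members, and Cd44, the hyaluronan receptor, at 316 and 121 CPM. Within the PKA tumor Itgb1, Cd44 and Itga3 were higher in members than in every other class and Itga6, the laminin-binding chain, was lower. Of 7 genes that ERK signalling induces as feedback 4 were higher in PKA than in WT members, the phosphatase genes Dusp5 and Dusp6, the inhibitor gene Spry2 and the AP-1 factor gene Fosl1, and Spry1 was lower, with a list median of 1.04. Dusp6 was at 296 CPM in PKA members and 97.8 CPM in WT members, but Luminal Progenitor 1 cells held 760 and 640.5 CPM. Igfbp7, a secreted insulin-like growth factor binding protein, was at 700.1 CPM in PKA members and 70.1 CPM in WT members, a ratio of 9.99 (8.57 to 11.6). Ctgf was 12.3-fold higher in PKA members (9.70 to 15.5) and 1.45-fold higher in Luminal Progenitor 1 cells. Of 10 YAP and TEAD target genes, a list added after the values were seen, 5 were higher and 1 lower. Ankrd1, among the higher ones, had 79.4% of its PKA member UMIs in 1 cell. Of 8 small proteoglycan and matrix genes, also listed after the values were seen, 6 were higher and 0 lower. Without the members poor in Krt8, Krt18 and Epcam 4 were higher: Tnc, Fn1, Igfbp7 and the protease inhibitor gene Timp1. Fn1 had 80.4% of its PKA member UMIs in 1 other cell. Vegfa, the angiogenic growth factor, was at 165 CPM in PKA members and 57.1 CPM in WT members. Counted over the scalings, cell filters and cell selections tried, interferon genes higher in PKA members numbered 6 to 10, antigen presentation genes 5 to 8, integrin and basement membrane genes 5 to 7 and ERK feedback genes 3 to 4, and milk protein genes lower in PKA members numbered 2 to 6.

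**Figure D5:**
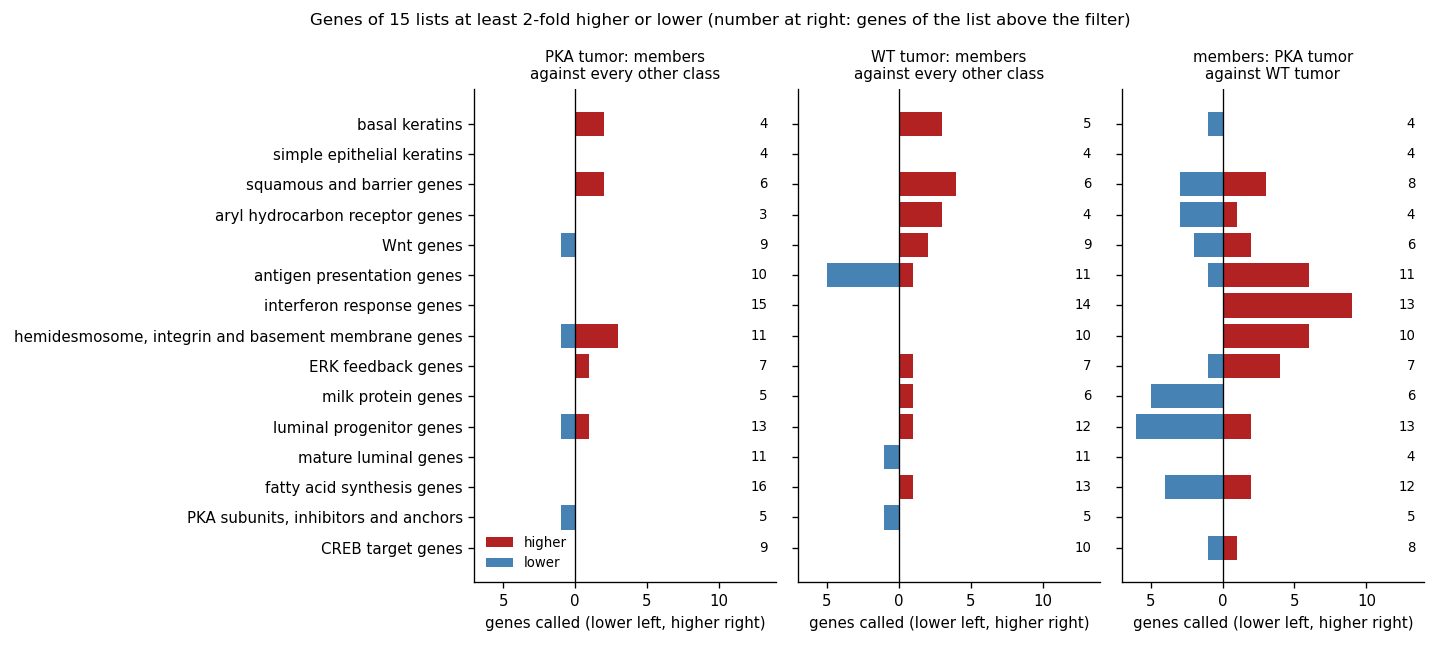
Genes of 15 lists counted as higher (right) or lower (left) in PKA members against the other classes, in WT members against the other classes, and in PKA against WT members; the number at the right of each row gives the genes of the list above the filter. Interferon response genes are uncalled in both tumors against other classes and 9 of 13 are higher in PKA than in WT members, and 5 of 11 antigen presentation genes are lower in WT members than in every other class.

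Several marker genes differed by under 2-fold between members of the 2 tumors. Krt14 had a ratio of 1.003 in PKA over WT members, with an interval that holds 1 (0.889 to 1.13). The other ratios lay beyond counting error: Sox4 had a ratio of 0.805 (0.730 to 0.886), Krt17 of 1.601 (1.41 to 1.81), Nkd2 of 1.75 (1.37 to 2.21) and Dyrk3 of 0.534 (0.396 to 0.706). Dyrk3 was past the 2-fold limit, lower in PKA members, with TMM scaling and when each cell was thinned to 2000 UMIs. None of the 16 S phase and none of the 16 G2/M genes passed the filter in the comparison between tumors.

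Within the WT tumor the members were set against the 107 squamous Lumino-Basal cells from which the rule parted them. Of 4346 genes 870 (20%) were higher and 528 (12.1%) lower in members. Since 2 genes of the same cells made the groups, these counts carry no weight as evidence. Thrsp was at 737 CPM in members and 13.5 CPM in squamous cells, and Znrf3 at 391 and 105 CPM, while Axin2 was at 46.6 and 45.8 CPM. Dmkn was at 1228 CPM in members and 8079 CPM in squamous cells, Krt14 at 733 and 4612 CPM and Foxq1 at 392 and 1339 CPM. Cyp1b1 and Gas7, at 294 CPM in members and 719 CPM in squamous cells, were thus carried by both kinds of Lumino-Basal cell.

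WT members differed among themselves in Thrsp. After thinning, 391 of 1023 WT members held a UMI of Thrsp. Gja1 was seen in 25.6% of those and 52.4% of the rest, Foxq1 in 26.3% and 50.6%, and Krt17 in 15.3% and 35.9%. Znrf3 was seen in 51.4% of Thrsp-positive cells and 41.3% of the rest, and Cyp1b1 in 37.3% and 38.3%. The shares of Gja1, Foxq1 and Krt17 were thus lower beside Thrsp and those of Cyp1b1 were close. The cells share 1 library, so these shares describe that library and were not tested.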

How the data were processed

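Single-cell RNA was measured in 4 libraries, and the 2 tumor libraries hold the cells described here. The values deposited by the authors are raw counts of UMIs for each gene in each barcode. Tools named in the submitters' processing notes are Cell Ranger, STAR 2.5.3a, featureCounts and Subread 1.6.0, on GRCm38/mm10, without a statement of which step made these files. A table for each library, also made by the authors, holds totals per cell, the fraction of mitochondrial UMIs, a cluster and a class. The series design names Monocle2 and the marker genes behind the classes. Barcodes without a class were not used, and the sources used here do not give the filter that set them aside.

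UMIs were summed over the cells of a class and tumor and scaled to CPM of that sum, since cells are not replicates. With 1 library per group no model was fitted. Ratios carry exact conditional binomial 95% intervals, levels exact Poisson intervals and shares exact Clopper-Pearson intervals. Genes of at least 50 CPM were counted as called at a 2-fold difference of (CPM + 10). Named genes were the 12 highest and 12 lowest ratios per comparison at 100 CPM or more, without mitochondrial, ribosomal protein, haemoglobin, predicted, Xist and Y-linked genes, together with members of the gene lists and the given markers. For shares, cells were thinned to 2000 UMIs each, leaving out shallower ones. Members and lists were chosen with earlier results of these data known. No doublet caller was run and no doublets were removed; an alternative leaves out the 5% of cells with the most UMIs in each library. Steps were tested on simulated counts. Of 31781 gene symbols 30905 matched GENCODE M21 on GRCm38, from which gene positions were taken; promoters came from RefSeq. Work was done in Python 3.11.15 with NumPy 2.4.6, SciPy 1.17.1, pandas 2.3.3 and matplotlib 3.10.9. For TMM factors edgeR 4.0.16 was run in R 4.3.3.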

Additional observations from a re-analysis of the deposited data

Results flagged for a closer look

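The 7 named genes that follow differed by at least 2-fold between the tumors in members and by at least 2-fold in the opposite direction in Luminal Progenitor 1 cells, each from 1 library per tumor, so the difference between the classes was not tested. Cpm was at 382 CPM in PKA members and 98.6 CPM in WT members, a log2 ratio of 1.85, and had a log2 ratio of -1.91 in Luminal Progenitor 1 cells. Tpm2, a tropomyosin of the contractile apparatus, was at 148 CPM in PKA members and 26.0 CPM in WT members, a log2 ratio of 2.13, against -1.92 in Luminal Progenitor 1 cells. Vegfa had a log2 ratio of 1.38 in members and -1.04 in Luminal Progenitor 1 cells. Cst3 had a log2 ratio of 4.02 in members and -1.98 in Luminal Progenitor 1 cells, and 1.34 in members without those poor in Krt8, Krt18 and Epcam. Dmkn was at 444 CPM in PKA members and 1228 CPM in WT members, a log2 ratio of -1.45, against 2.33 in Luminal Progenitor 1 cells. Apoc1, a small apolipoprotein, had a log2 ratio of -1.94 in members and 1.31 in Luminal Progenitor 1 cells. Wfdc18, a small secreted protein of mammary epithelium, was at 7563 CPM in PKA members and 23774 CPM in WT members, a log2 ratio of -1.65, against 1.53 in Luminal Progenitor 1 cells.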

How the results depend on the processing

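Counts of genes between members and the other classes depended on scaling and on low genes, in the PKA tumor most of all. In the PKA tumor, 164 higher and 61 lower genes became 105 and 101 with TMM factors, 105 and 127 with each gene counted without its top member cell, 249 and 117 with no filter on low values, and the lower genes numbered 187 after thinning to 2000 UMIs, 127 with 1 CPM added, 108 at a minimum of 20 CPM and 37 at a minimum of 100 CPM. In the WT tumor, 108 higher and 46 lower genes became 179 higher with no filter, 65 higher at a minimum of 100 CPM and 86 lower with 1 CPM added. Between PKA and WT members the counts were 242 higher and 248 lower at a minimum of 100 CPM and 616 and 749 with no filter, and against squamous cells 489 were higher at a minimum of 100 CPM. All 105 higher genes under TMM were among the 164. Dcn in the PKA tumor (log2 ratio -1.92) and Apoe in the WT tumor (-0.63) reversed in sign without members poor in Krt8, Krt18 and Epcam. These ratios are to the class with the highest level. Cells poor in those genes were left out of members only and kept in the other classes. For 96 values of named genes, 1065 of 1175 alternative values stayed within their 95% counting interval, 108 moved and 2 reversed. This tally includes values that could not move. The CPM minimum leaves ratios unchanged, which covers 96 values at 100 CPM, 72 at 20 CPM and 72 without a filter. Ratios within the PKA tumor also could not move with the rule's thresholds, which left its members the same. Other thresholds of the rule, 5, 10 and 50 UMIs, gave 65 PKA members each and 1009, 1064 and 1117 WT members. Leaving out members poor in epithelial genes, leaving out each gene's top cell and all alternatives for squamous cells were chosen after seeing the data. No paired analysis was possible because each group has 1 library. In the 65 PKA members 0 UMIs allow a level of up to 7.40 CPM.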

Other observations

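Some gene groups not described above were also read, and each count stands beside the 8.51% higher and 9.71% lower of all genes. Of 20 immediate early genes 17 passed the filter between PKA and WT members, and 1 was higher and 1 lower, Fosl1 and Ier2. Of 7 p53 target genes above the filter none was called between PKA and WT members, and of 18 epithelial junction genes 3 were higher in PKA members, Epcam, Dsg2 and Pkp1, and 1 lower, the transcription factor gene Ovol1. Of 9 acute phase and antimicrobial genes 6 were higher and 2 lower in PKA members, beside 8.51% and 9.71% of all genes, and 4 of 9 were higher in Luminal Progenitor 1 cells. The higher genes numbered 3, Saa1, Slpi and Chil1, when each gene was counted without its top member cell, and 5 without the members poor in Krt8, Krt18 and Epcam, where C3 lay below the filter at 30.4 CPM in PKA members. Saa1, serum amyloid A, was at 774 CPM in PKA members and 36.6 CPM in WT members, with 43.0% of its PKA member UMIs in 1 cell and 95.2% in 5 cells. Of 17 glycolysis and hypoxia genes 5 were higher in PKA members, Slc2a1, Pfkp, Vegfa, Car9 and Egln3, and 1 lower, Pdk1. Wnt5a had 0 UMIs in PKA members and stood at 34.4 CPM in WT members.

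A UMI of at least 3 of the 12 genes furthest above every other class in the WT tumor was found in 33.8% of PKA members and 92.8% of WT members, and in 9.01% of WT Luminal Progenitor 1 cells. Of the 12 such genes of the PKA tumor, at least 3 were seen in 70.8% of PKA members and 16.9% of WT members. These shares were not thinned. Each set was chosen as high in members of its own tumor, so its contrast with other classes there follows from the choice.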
